A study of Mus musculus with 4 samples.

Results

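Intermediate progenitors are the dividing daughter cells of radial glia in the developing cortex. They leave the ventricular surface, gather in the subventricular zone and give rise to most excitatory neurons of the cortical plate. Eomes (also called Tbr2), a T-box transcription factor, is the gene by which they are usually recognised. Notch signalling holds radial glia in the progenitor state, and its decline accompanies entry into the intermediate state.

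The 8 genes described here, Eomes, Btg2, Insm1, Gadd45g, Sstr2, Mfap4, Hes6 and Mfng, were taken by name as markers of this cell type. They were chosen with earlier results of these data known. All 8 of the 8 were found in both deposited tables and passed the filter on low counts, among 22619 genes listed and 16269 tested. The RNA came from E16.5 mouse cortex (embryonic day, C57BL/6 background), with 2 libraries labelled as conditionally lacking H2A.Z.2, a histone variant (cKO, replicates 1 and 2) and 2 wild-type libraries (WT, replicates 1 and 4). No treatment is named for either group. The sources used here name neither the driver of the deletion nor whether a library holds 1 embryo or several, so p-values reflect only the spread among the 4 libraries, which may in part be technical. The series asks how neural progenitors act on microglia through H2A.Z.2.

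Each library held 16625181 to 17940659 reads assigned to genes. H2afv, which encodes H2A.Z.2, was at 128 and 127 CPM (the count scaled to the size of its library) in cKO replicates 1 and 2, against 136 and 222 CPM in WT replicates 1 and 4. The cKO libraries thus lay close to WT replicate 1 and far below WT replicate 4, so the knockout libraries are named by their label, as cKO-labelled libraries. A count over a whole gene would not show a loss limited to a few exons. WT replicate 4 stood apart: 1487 of the genes tested differed more than 2-fold between it and WT replicate 1, whereas cKO replicates 1 and 2 differed from WT replicate 1 in 438 and 469 genes. The markers are therefore also set against WT replicate 1 alone.

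For 5 of the 8 genes RefSeq gave the start of transcription on GRCm38.p6. The 250 bases before it are shown for Eomes and Btg2, which were lower in both cKO-labelled libraries than in either WT library. They are also shown for Gadd45g and Hes6, which were not. Sstr2, which was not either, is described below without its sequence. Capitals mark E-boxes (CANNTG, the sites of basic helix-loop-helix factors such as the neurogenins), CCAAT boxes (CCAAT on either strand) and the cAMP response element (TGACGTCA). None of the windows held an exon of GENCODE release M21. The Eomes window lies at chr9:118477939-118478188 on the plus strand, that of Btg2 at chr1:134079156-134079405 on the minus strand, that of Gadd45g at chr13:51846425-51846674 on the plus strand and that of Hes6 at chr1:91414039-91414288 on the minus strand.
Eomes: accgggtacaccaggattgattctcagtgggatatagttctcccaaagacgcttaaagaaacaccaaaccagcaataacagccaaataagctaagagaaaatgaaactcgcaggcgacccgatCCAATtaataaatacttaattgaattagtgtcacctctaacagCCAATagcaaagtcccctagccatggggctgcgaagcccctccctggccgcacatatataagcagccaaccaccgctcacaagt
Btg2: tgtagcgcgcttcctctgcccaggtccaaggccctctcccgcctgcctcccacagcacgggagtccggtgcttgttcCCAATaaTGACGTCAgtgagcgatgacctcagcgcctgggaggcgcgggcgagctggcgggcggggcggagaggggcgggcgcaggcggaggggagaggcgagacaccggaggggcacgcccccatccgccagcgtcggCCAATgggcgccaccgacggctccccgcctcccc
Gadd45g: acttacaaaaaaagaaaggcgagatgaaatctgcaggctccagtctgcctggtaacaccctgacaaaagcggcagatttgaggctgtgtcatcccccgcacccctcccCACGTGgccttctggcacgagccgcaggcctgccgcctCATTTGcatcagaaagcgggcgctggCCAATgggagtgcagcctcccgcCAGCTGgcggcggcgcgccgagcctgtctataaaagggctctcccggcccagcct
Hes6: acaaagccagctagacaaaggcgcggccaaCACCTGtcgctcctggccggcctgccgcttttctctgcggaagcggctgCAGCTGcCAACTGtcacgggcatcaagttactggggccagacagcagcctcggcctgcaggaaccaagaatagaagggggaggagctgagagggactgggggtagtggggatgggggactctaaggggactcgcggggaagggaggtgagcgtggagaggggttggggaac

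The windows of Eomes and Btg2 held 0 E-boxes on either strand and 2 CCAAT boxes each, and those of Gadd45g and Hes6 held 3 E-boxes each. Among 32851 such windows over all genes, 66.2% held an E-box and 33.8% a CCAAT box. The form CAGATG, preferred by neurogenins, was in none of the 5 genes' windows and in 14.4% of all. The cAMP response element, found in 1.55% of all windows, occurred in Btg2 and in Sstr2, whose window at chr11:113619077-113619326 on the plus strand held no E-box. A further RefSeq start of Hes6 inside the gene had 1 E-box and 2 CCAAT boxes. These matches describe letters in the windows and are not measured binding. Base composition varied as well, the GC content being 46.4% for Eomes and 73.2% for Btg2, against a median of 52.4% over all windows. Insm1, Mfap4 and Mfng are named only.

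All 8 markers were lower in the cKO-labelled libraries than in WT by the fitted fold change, and none of them passed 5% FDR (false discovery rate, Benjamini-Hochberg). Their median log2 fold change was -0.33, against -0.01 over all genes tested, where 51.9% of genes had a negative value. Of the 8, 4 (Eomes, Btg2, Mfap4 and Mfng) had both cKO libraries below both WT libraries, a pattern seen in 15.7% of all genes. An unadjusted p below 0.05 with a lower level was reached by 2 of the 8, Btg2 and Eomes, and by 0.996% of all genes. At 5% FDR the edgeR quasi-likelihood test called 0 of 16269 genes, or 0%, with 272 at an unadjusted p below 0.05, and DESeq2 called 0 with 401. All 8 markers were highest in WT replicate 4, as were 37.6% of all genes. Without WT replicate 4 the median was -0.065, with 5 of the 8 lower. Without WT replicate 1, when WT rested on replicate 4 alone, the median was -0.48, with 8 of the 8 lower. In bulk tissue, fewer cells of a type and less RNA per cell cannot be told apart.

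**Figure D1:**
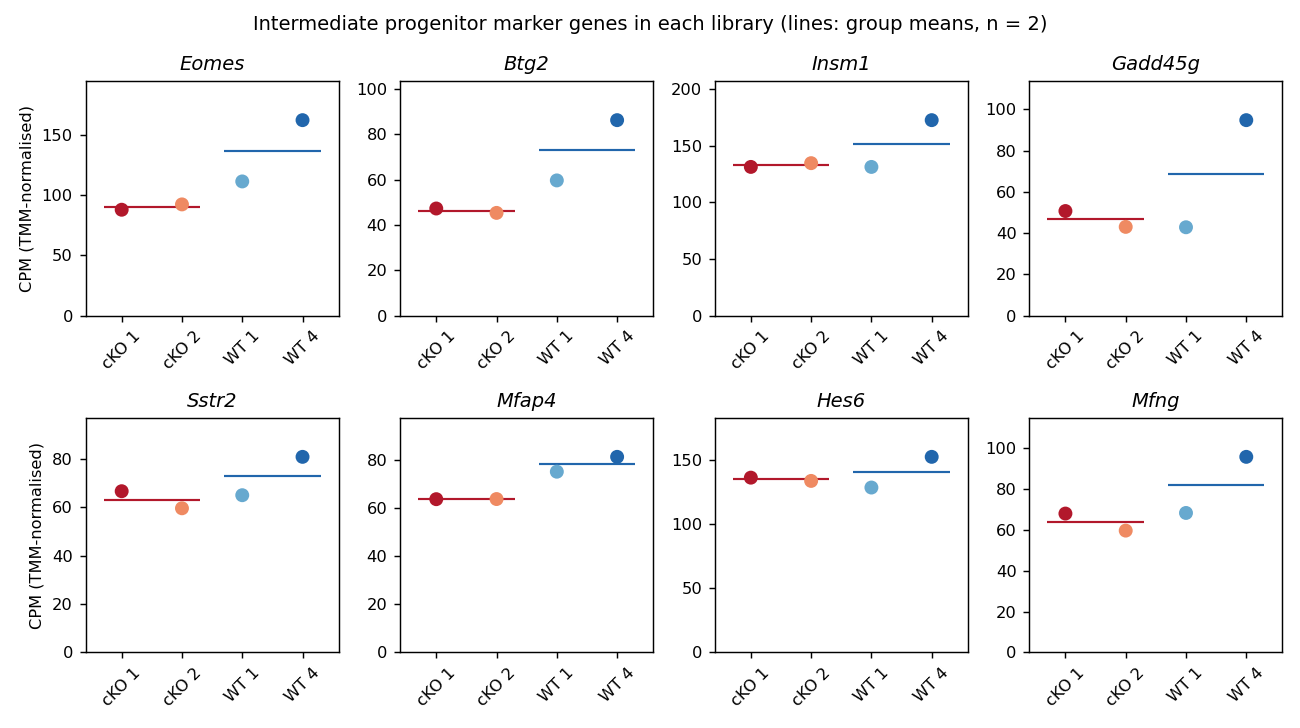
TMM-normalised CPM (y axis, from 0) of each of the 8 genes in the 4 libraries (points), with group means as lines (n = 2 each). WT replicate 4 holds the highest point in all 8 panels, and in Eomes, Btg2, Mfap4 and Mfng both cKO points lie below both WT points.

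Eomes, the transcription factor that defines the cell type (ENSMUSG00000032446, chr9:118478212-118486132, plus strand, 6 exon blocks), was at 88.0 and 92.4 CPM in cKO replicates 1 and 2, against 111 and 162 CPM in WT replicates 1 and 4. The cKO-labelled libraries differed little from each other, and both lay below the lower WT library. The group means were 90.2 ± 3.13 CPM in the cKO-labelled libraries and 137 ± 36.0 CPM in WT (SD, n = 2 each). The log2 fold change was -0.60 (SE 0.19, 95% interval -1.07 to -0.13, edgeR unadjusted p = 0.0196, adjusted p = 0.956). Against WT replicate 1 alone the log2 difference was -0.34 for cKO replicate 1, with a 95% interval from read counting of -0.44 to -0.25, and -0.27 for cKO replicate 2 (-0.37 to -0.17). Both intervals lie below 0, and they cover counting error only. The antisense gene Gm33460, which overlaps the end of Eomes, had 25 and 40 reads in the cKO-labelled libraries and 48 and 35 in WT, against 1573 to 2746 reads for Eomes. Reads from the stretch they share were not measured.

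Btg2, an antiproliferative gene switched on in progenitors about to make neurons (ENSMUSG00000020423, chr1:134075170-134079120, minus strand, 2 exon blocks), followed Eomes closely. It was at 47.3 and 45.4 CPM in cKO replicates 1 and 2, against 59.7 and 86.3 CPM in WT replicates 1 and 4. As for Eomes, the 2 groups did not overlap. The log2 fold change was -0.66 (SE 0.20, 95% interval -1.14 to -0.18, edgeR unadjusted p = 0.0153, adjusted p = 0.956). Relative to WT replicate 1, cKO replicate 1 had 20.8% less and cKO replicate 2 had 24.0% less, both beyond counting error. The ratio of Eomes to Btg2 was 1.86 and 2.04 in the cKO-labelled libraries and 1.87 and 1.88 in WT, so these genes stood in nearly the same proportion in all 4 libraries.

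Mfap4, a secreted glycoprotein of elastic fibres (ENSMUSG00000042436, chr11:61485431-61488900, plus strand, 6 exon blocks), also separated the groups. Its level was 63.6 and 63.7 CPM in the cKO-labelled libraries, against 75.1 and 81.2 CPM in WT replicates 1 and 4. The WT libraries were closer to each other here than for any other of the 8 genes on the log2 scale, at a difference of 0.11. The log2 fold change was -0.30 (SE 0.13, 95% interval -0.60 to 0.01, edgeR unadjusted p = 0.0582, adjusted p = 0.956). Relative to WT replicate 1, cKO replicates 1 and 2 had 15.2% and 15.1% less, beyond counting error. Mfap4 is also expressed by connective tissue and vessel wall cells. The summed level of 10 meningeal fibroblast markers was 194 and 232 CPM in the cKO-labelled libraries and 263 and 182 CPM in WT. Against WT replicate 1, their median log2 difference was -1.35 for cKO replicate 1, -0.37 for cKO replicate 2 and -1.78 for WT replicate 4. The summed level of 9 mural cell markers was 202 and 183 in cKO versus 202 and 199 CPM in WT. The part of either list in the Mfap4 difference was not tested. Mapk7, which overlaps the last bases of Mfap4 on the other strand, had 3763 and 3580 reads in the cKO-labelled libraries and 3295 and 3304 in WT. The strand setting of the counting is not stated, so reads from the stretch they share cannot be told apart.

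Mfng, a fringe glycosyltransferase that modifies Notch receptors (ENSMUSG00000018169, chr15:78755882-78773475, minus strand, 10 exon blocks), was at 67.9 and 59.6 CPM in the cKO-labelled libraries, against 68.2 and 95.7 CPM in WT replicates 1 and 4. Its groups did not overlap, but cKO replicate 1 and WT replicate 1 were apart by -0.01 on the log2 scale, which is inside counting error (-0.12 to 0.11). cKO replicate 2 lay below WT replicate 1 by more than counting error, at -0.20 (-0.32 to -0.074). The log2 fold change was -0.36 (SE 0.19, edgeR unadjusted p = 0.106, adjusted p = 0.956). The other fringe genes had opposite signs. Lfng was at 32.4 and 21.8 in cKO versus 27.8 and 42.8 CPM in WT (log2 fold change -0.38), and Rfng was at 139 and 144 CPM in the cKO-labelled libraries, above 137 and 98.2 CPM in WT (log2 fold change 0.27). Neither passed 5% FDR.

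In the remaining 4 markers the groups overlapped. Insm1, a zinc-finger factor that promotes the formation of these progenitors (ENSMUSG00000068154, chr2:146221921-146225020, plus strand, a single exon), was at 131 and 135 CPM in the cKO-labelled libraries, against 131 and 172 CPM in WT replicates 1 and 4. Both cKO-labelled libraries and WT replicate 1 were nearly alike, and WT replicate 4 was higher. Its log2 fold change was -0.19 (SE 0.16, edgeR adjusted p = 0.956). Against WT replicate 1 the differences were 0.00016 (counting interval -0.083 to 0.083) and 0.036 (-0.047 to 0.12), so at this depth no difference was detectable between them.

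Hes6, a member of the HES family that opposes HES1 and favours differentiation (ENSMUSG00000067071, chr1:91411483-91414038, minus strand, 2 exon blocks), was at 136 and 134 CPM in the cKO-labelled libraries, against 129 and 152 CPM in WT. It differed least of the 8 between the groups (log2 fold change -0.06, SE 0.13, edgeR adjusted p = 0.969) and varied least over the 4 libraries, with an SD of 0.11 on the log2 scale. Both cKO-labelled libraries lay above WT replicate 1, by 0.08 and 0.06 on the log2 scale. The Notch effectors Hes1 and Hes5, which Hes6 resembles in sequence but not in role, had groups that did not overlap. Both cKO libraries were below both WT libraries, as in 15.7% of all genes. The nearest libraries had few reads, 224 in cKO replicate 2 and 257 in WT replicate 1 for Hes1. For Hes5 they had 143 in cKO replicate 1 and 156 in WT replicate 4. Counting intervals were not computed for these genes. Hes1 was at 11.4 and 13.1 in cKO versus 14.8 and 23.2 CPM in WT (log2 fold change -0.64, SE 0.27), and Hes5 was at 8.0 and 6.18 in cKO versus 9.81 and 9.22 CPM in WT (-0.42, SE 0.26). Neither passed 5% FDR; the ratio of Hes6 to Hes1 was 12 and 10.2 in the cKO-labelled libraries and 8.67 and 6.56 in WT. Hes7 was below the filter, with 12 and 10 reads in cKO against 5 and 7 in WT.

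Gadd45g, a growth arrest gene induced by proneural factors (ENSMUSG00000021453, chr13:51846678-51848468, plus strand, 3 exon blocks), was the most variable marker. It was at 50.7 and 43.0 CPM in the cKO-labelled libraries, against 42.9 and 94.8 CPM in WT replicates 1 and 4. Its fitted log2 fold change of -0.55 (SE 0.35, edgeR adjusted p = 0.956) rests on WT replicate 4: relative to WT replicate 1, cKO replicate 1 was 0.24 higher (counting interval 0.10 to 0.38) and cKO replicate 2 differed by 0.0062. The relatives Gadd45a and Gadd45b were at 1.62 and 1.98 in cKO versus 1.5 and 2.13 CPM in WT and at 2.13 and 2.22 in cKO versus 2.71 and 1.83 CPM in WT, with log2 fold changes of -0.01 and -0.07.

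Sstr2, a receptor for the inhibitory peptide somatostatin (ENSMUSG00000047904, chr11:113619342-113626028, plus strand, 2 exon blocks), was at 66.6 and 59.6 CPM in the cKO-labelled libraries, against 65.0 and 80.8 CPM in WT (log2 fold change -0.21, SE 0.16, edgeR adjusted p = 0.956). cKO replicate 2 alone lay below WT replicate 1 by more than counting error, at -0.13 (counting interval -0.25 to -0.0031). The ligand gene Sst, made by interneurons, was at 150 and 96.1 in cKO versus 107 and 92.4 CPM in WT (log2 fold change 0.30). Sstr3 was at 5.26 and 7.06 in cKO versus 8.31 and 10.2 CPM in WT (-0.58, SE 0.28), Sstr1 at 2.40 and 0.642 in cKO versus 0.981 and 2.36 CPM in WT, and Sstr4 and Sstr5 had at most 6 reads in any library. The related peptide gene Cort was at 1.34 and 2.39 in cKO versus 1.15 and 0.414 CPM in WT. None of these genes passed 5% FDR. Sstr2 lies inside the gene region of Slc39a11 on the other strand, which had 531 and 478 reads in the cKO-labelled libraries and 538 and 521 in WT.

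**Figure D2:**
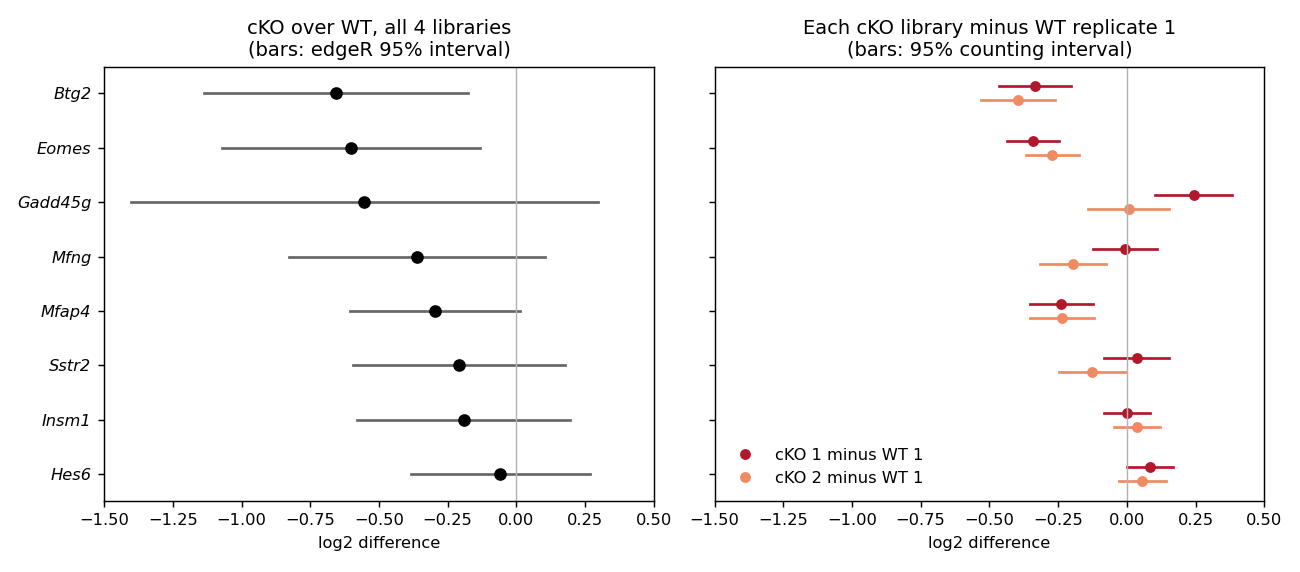
Left, log2 fold change of cKO over WT for each gene with its edgeR 95% interval (n = 2 each); right, log2 difference of each cKO library from WT replicate 1 with its 95% counting interval. All 8 values on the left are below 0, whereas on the right Eomes, Btg2 and Mfap4 alone have both libraries below 0 by more than counting error.

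Against WT replicate 1 alone the 8 markers had a median log2 difference of -0.0031 in cKO replicate 1 and -0.16 in cKO replicate 2. Both cKO-labelled libraries were below WT replicate 1 in 4 of the 8 markers and in 30.0% of all genes. In 3 of them, Eomes, Btg2 and Mfap4, both differences were beyond counting error, as in 3.39% of all genes, a measure that genes with more reads meet more easily. WT replicate 4 exceeded WT replicate 1 in all 8, by 0.11 for Mfap4 to 1.14 for Gadd45g, with a median of 0.44. The 2 cKO-labelled libraries differed from each other by between -0.24 and 0.07, and for 5 of the 8 genes that difference was inside counting error.

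The authors' deposited tables set cKO replicate 1 against WT replicate 4 and cKO replicate 2 against WT replicate 1. In the authors' deposited table of the first pair the log2 fold changes were -0.91 for Eomes, -0.90 for Btg2, -0.93 for Gadd45g and -0.19 for Hes6. In the authors' deposited table of the second pair they were -0.31 for Eomes, -0.43 for Btg2, -0.03 for Gadd45g and 0.02 for Hes6. None of the 8 reached the log2 threshold of 1 named in the design text in the authors' deposited tables, where each value rests on 1 library against 1.

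The markers differed by unequal amounts, so their proportions within a library were compared, a measure that does not depend on how libraries are scaled. The ratio of Eomes to Insm1 was 0.671 and 0.687 in the cKO-labelled libraries, against 0.850 and 0.941 in WT replicates 1 and 4. The ratio of Eomes to Hes6 was 0.646 and 0.691 in cKO against 0.867 and 1.06 in WT. Btg2 gave the same order, with 0.361 and 0.337 in cKO against 0.455 and 0.501 in WT relative to Insm1, and 0.347 and 0.339 in cKO against 0.465 and 0.566 in WT relative to Hes6. In each of these the groups did not overlap. Insm1 and Hes6 had the smallest fold changes of the markers. Over all 28 pairs, each with the marker listed earlier on top, 13 were lower in cKO without overlap, 3 were higher and 12 overlapped. The higher ones were Insm1, Sstr2 and Hes6, each over Mfng. The ratio of Eomes to another marker was lower without overlap for 5 of 7, the exceptions being Btg2 and Gadd45g. Against every other gene tested, the ratio of Eomes to that gene was lower without overlap for 72.0% of 16268 genes, and the ratio of Btg2 for 76.0%. A lower ratio relative to Insm1 or Hes6 is therefore near what most genes gave. With 2 libraries against 2, an exact permutation test of such a ratio cannot go below 0.333 (two-sided).

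**Figure D3:**
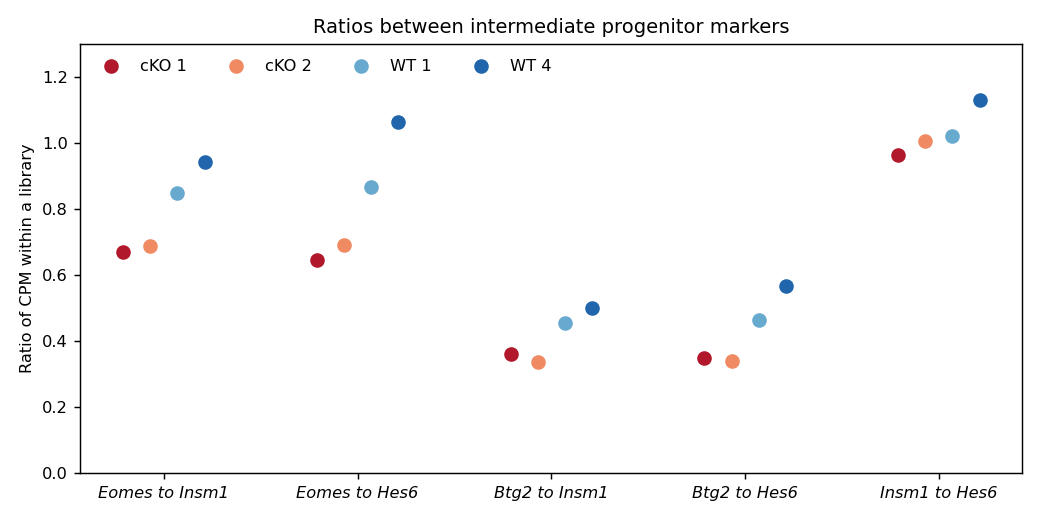
Ratio of CPM within each library (y axis, from 0) for 5 pairs of marker genes, in cKO replicates 1 and 2 and WT replicates 1 and 4. For Eomes and Btg2 over Insm1 or Hes6 both cKO points are well below both WT points. For Insm1 over Hes6 the cKO points, at 0.963 and 1.01, are also below the WT points, at 1.02 and 1.13, but lie closer to them.

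Levels of different genes were compared per kilobase of exon, as CPM divided by the merged exon length in GENCODE release M21. Hes6 was highest, at 71.1 to 84.3 CPM per kilobase over the 4 libraries. Gadd45g and Insm1 came next, at 36.5 to 80.8 and 42.3 to 55.6, and each was the higher of the pair in 2 libraries, so their order is not fixed. Mfap4 (33.1 to 42.3) was below Insm1 in all 4 libraries, with ranges that did not overlap, and above Sstr2 (27.8 to 37.7) in all 4. Eomes (21.2 to 39.1) and Mfng (21 to 33.7) overlapped widely, and Btg2 was lowest at 17 to 31.5 and below Mfng in all 4 libraries. The summed level of the 8 was 652 and 632 CPM in the cKO-labelled libraries, against 682 and 926 CPM in WT replicates 1 and 4. The share of Eomes in that sum was 13.5% and 14.6% in cKO, against 16.3% and 17.5% in WT.

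A list of 18 other genes of intermediate progenitors was also highest in WT replicate 4. Like the markers and the other lists, it was chosen with earlier results of these data known, so it is no independent support. Of these, 17 were lower in the cKO-labelled libraries and 1 higher, with a median log2 fold change of -0.50, and 0 passed 5% FDR. In 8 of the 18 both cKO libraries were below both WT libraries, a pattern seen in 15.7% of all genes. The 4 genes named next are those of the list with the smallest unadjusted p. Neurog2, the proneural factor upstream of Eomes, was at 83.5 and 88.7 CPM in the cKO-labelled libraries, against 103 and 192 CPM in WT (log2 fold change -0.78, SE 0.28). Chd7, a chromatin remodeler, was at 40.9 and 40.6 in cKO versus 49.8 and 77.7 CPM in WT (-0.65, SE 0.22). Tfap2c was at 25.4 and 27.6 in cKO versus 31.2 and 55.9 CPM in WT (-0.72, SE 0.28), and Neurod1, which marks the exit towards neurons, at 35.8 and 46.7 in cKO versus 51.7 and 61.9 CPM in WT (-0.46, SE 0.19). Some others had groups that overlapped, such as Dll3 at 15.5 and 10.8 in cKO versus 12.6 and 25.9 CPM in WT. The single gene with a positive value, Sox4, chosen for that reason with its values in view, had a log2 fold change of 0.03 (SE 0.34). WT replicate 4 was highest in 17 of the 18, against 37.6% of all genes. Against WT replicate 1 the list medians were -0.11 for cKO replicate 1 and -0.16 for cKO replicate 2.

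Genes of the cells before and after the intermediate stage framed these values. Radial glia genes were lower in 18 of 20, with a median of -0.36. Against WT replicate 1 alone their medians were -0.21 for cKO replicate 1 and -0.25 for cKO replicate 2. Of the 20, 10 had both cKO libraries below both WT libraries, against 15.7% of all genes. WT replicate 4 was highest in 13, against 37.6% of all genes. Among the 4 with the smallest unadjusted p, Vim, an intermediate filament, was at 418 and 354 in cKO versus 447 and 666 CPM in WT. Ednrb, the endothelin receptor B and also among them, was at 28.5 and 22.9 in cKO versus 34.6 and 42.4 CPM in WT. The ratio of Eomes to Pax6, a radial glia transcription factor, was 1.72 and 1.72 in the cKO-labelled libraries and 1.82 and 1.97 in WT. Cell cycle genes were lower in all 20 tested and highest in WT replicate 4 in all 20, against 37.6% of all genes (median -0.68). Of these, 11 had both cKO libraries below both WT libraries, against 15.7% of all genes. Against WT replicate 1 alone the cell cycle medians were -0.011 for cKO replicate 1 and -0.26 for cKO replicate 2, while WT replicate 4 exceeded WT replicate 1 by 1.01. The ratio of Eomes to Mki67, a gene of dividing cells, was 0.929 and 0.982 in cKO against 1.09 and 0.808 in WT, so the groups overlapped. Genes of newborn and postmitotic neurons were higher in 13 of 16 (median 0.22). The neuron medians against WT replicate 1 alone were -0.083 for cKO replicate 1 and 0.15 for cKO replicate 2, and WT replicate 4 lay at -0.37. The Notch pathway list, which holds Mfng, was lower in 19 of 23 (median -0.38, or 0.038 and -0.13 for cKO replicates 1 and 2 against WT replicate 1), with Notch2 at 41.3 and 31.1 in cKO versus 46.7 and 61.6 CPM in WT, while the ligand gene Jag2 was higher at 98.3 and 94.7 in cKO versus 81.8 and 62.9 CPM in WT. In these 4 lists 0 genes passed 5% FDR.

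The relatives of Btg2 had the same sign as Btg2. Btg1 was at 105 and 99.8 in cKO versus 118 and 129 CPM in WT (log2 fold change -0.28, SE 0.12), and Btg3 at 5.48 and 5.42 in cKO versus 7.44 and 11.4 CPM in WT (-0.79, SE 0.30). These 2 and Btg2 had both cKO libraries below both WT libraries, a pattern seen in 15.7% of all genes. Tob1 was at 16.9 and 18.6 in cKO versus 17.2 and 33.9 CPM in WT and Tob2 at 18.7 and 16.3 in cKO versus 18.6 and 32.8 CPM in WT, in each case with overlap. All 5 were highest in WT replicate 4, as were 37.6% of all genes, and 0 passed 5% FDR. The family medians against WT replicate 1 were -0.17 for cKO replicate 1 and -0.24 for cKO replicate 2.

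**Figure D4:**
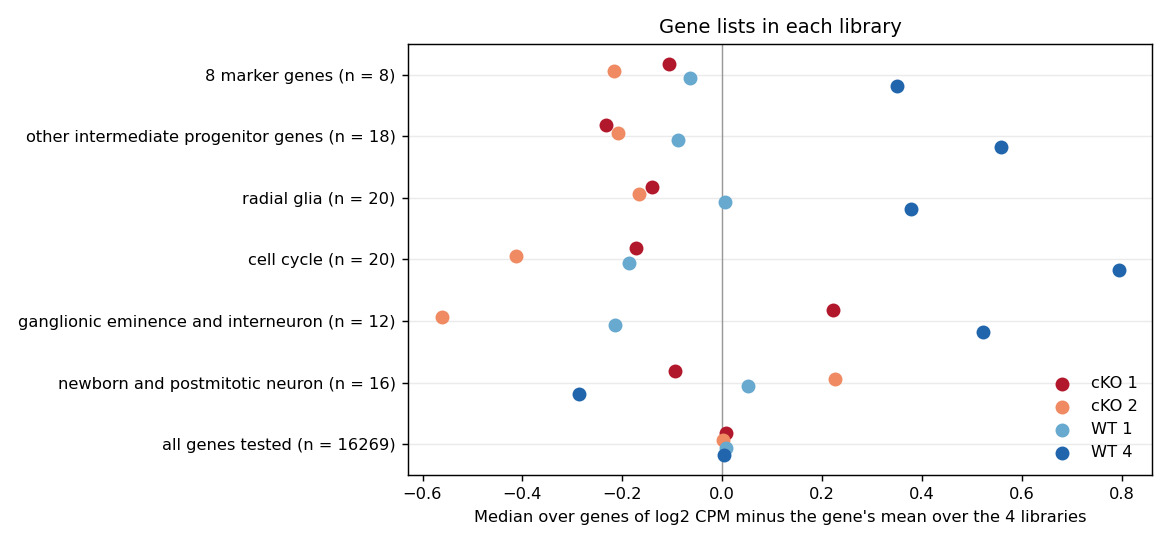
Median over the genes of each list (rows) of log2 CPM minus the gene's own mean over the 4 libraries (x axis), for cKO replicates 1 and 2 and WT replicates 1 and 4 (points). The 8 markers stand at -0.11 and -0.22 in the cKO libraries and at -0.06 and 0.35 in WT, and WT replicate 4 is the highest point for every list of progenitor or cell cycle genes and for the ganglionic eminence list.

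Several of the 8 markers are also used by dividing cells of the ganglionic eminence, the ventral source of interneurons, which the dissected tissue could include. All 12 genes of a ganglionic eminence and interneuron list were lower in the cKO-labelled libraries by the fitted value (median -0.35, 0 past 5% FDR, 0 without overlap). Set against WT replicate 1, the medians were 0.37 for cKO replicate 1 and -0.26 for cKO replicate 2. Their summed level was 1236 and 770 CPM in cKO replicates 1 and 2, against 950 and 1593 CPM in WT replicates 1 and 4. Nkx2-1, a factor of the medial ganglionic eminence and hypothalamus, was at 39.7 and 2.51 in cKO versus 21.5 and 95.5 CPM in WT. The part of ventral tissue in the marker levels was not tested. Eomes is also expressed in Cajal-Retzius neurons, whose 8 list genes had a median of 0.10 with 5 higher. For lists of other cells the median log2 fold changes were 0.02 for endothelium, 0.08 for mural cells, 0.27 for microglia, -0.14 for meningeal fibroblasts, 1.98 for choroid plexus, -0.61 for thalamus and hypothalamus and -0.05 for erythroid genes, with 0 genes past 5% FDR in each. In the choroid plexus list the summed level was 498 and 54.1 CPM in the cKO-labelled libraries, against 33.2 and 10.9 CPM in WT. In the erythroid list 4 genes were higher and 4 lower. Its globin gene Hbb-y was at 0.503 and 0.525 in cKO versus 2.02 and 72.4 CPM in WT replicates 1 and 4.

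Genes whose level over the 4 libraries was most like that of Eomes were sought among 13286 genes that varied at least as much as the least variable marker, by the Euclidean distance between log2 CPM values centred on each gene's mean. The nearest were Gm44781 (distance 0.029), Vill (0.042), Epha4, an ephrin receptor (0.045), Golph3, a Golgi protein (0.050) and Qk, an RNA-binding protein (0.062), against a median distance of 0.84. Epha4 was at 87.4 and 91.6 CPM in the cKO-labelled libraries and 107 and 156 CPM in WT, with the 4 libraries in the same order as for Eomes. Among the markers, Btg2 was nearest to Eomes (0.11) and Hes6 farthest (0.57). To the mean pattern of all 8 markers the nearest genes were Gart (0.011), Ddx19a (0.026), 2610316D01Rik (0.028), Kansl1l (0.028) and Mapk6 (0.033), and the nearest marker was Mfng (0.084). With 4 libraries, 1 of which stands apart, such likeness is a description only.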

How the data were processed

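Read counts per gene were deposited by the authors in 2 tables, each of 1 cKO and 1 WT library; per the submitters' processing notes, Bowtie2 2.2.3, TopHat2 2.0.12, HTSeq 0.6.0 and mm9 were used. The deposited positions are those of GRCm38: 92.2% of 22574 genes matched GENCODE release M21. Column headers give the sample titles and were used to match columns to samples; the description fields of WT replicate 4 and cKO replicate 2 name other tables. The authors' deposited log2 fold change and adjusted p-value are each for 1 library against 1, and neither the test behind them nor the strand setting of the counting is stated there.

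Counts of the 19844 genes in both tables were joined in Python 3.11.15 and tested across all genes with edgeR 4.0.16 (R 4.3.3; TMM factors, quasi-likelihood test, two-sided, Benjamini-Hochberg). The filter filterByExpr, at a minimum count of 10, left 16269 genes; the biological coefficient of variation was 0.194, with 2 residual degrees of freedom. The pipeline was tested on simulated data. CPM are TMM-normalised. Log2 values over libraries used CPM plus 0.1, and counting intervals are at 95% from Poisson errors of the read counts. DESeq2 1.42.0, other factors, other filters, the deposited table as a block and each library left out were alternatives. The markers and gene lists were chosen with earlier results of these data known. Named are the 8 markers, H2afv, their gene families, up to 4 genes per list with the smallest unadjusted p, and the 5 genes nearest in pattern. A line of each table was emptied beforehand and is not reported here.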

Additional observations from a re-analysis of the deposited data

How the results depend on the processing

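Under DESeq2, other size factors, library totals alone, other filters, genes of 1 table added and the deposited table as a block, 0 genes passed 5% FDR, all 8 markers had a log2 fold change below 0, 4 had groups without overlap, and the marker median lay between -0.36 and -0.31. Leaving out 1 library changed more, each time with a lone library assumed to vary like the others. Over these 4 fits the marker median ran from -0.48 to -0.065, and markers lower numbered 5 to 8. Markers without overlap in either direction numbered 4 to 8, a count that a lone library in a group makes easier to reach. In the fit without WT replicate 4, 7 were without overlap, with Insm1, Gadd45g and Hes6 higher in cKO. In the lower direction alone, both cKO-labelled libraries were below WT replicate 1 in 30.0% of all genes. The share of all genes without overlap in either direction was not computed for these fits, so the counts are not read as a result about the markers. The 1849 came without WT replicate 1, when Eomes, Btg2, Gadd45g and Mfng were called (edgeR adjusted p = 0.00118 to 0.0163); without cKO replicate 1 the number was 1. Without WT replicate 4, Insm1, Gadd45g and Hes6 turned to 0.024, 0.13 and 0.076, while their lowest values, without WT replicate 1, were -0.37, -1.01 and -0.17; Eomes, Btg2, Mfap4, Mfng and Sstr2 were at -0.30, -0.36, -0.23, -0.09 and -0.04, each nearer to 0 than with it (edgeR adjusted p = 1 each). Across the fits on all 4 libraries, adjusted p of the 8 markers was 0.597 to 1 (edgeR or DESeq2). With the deposited table as a block, 920 genes had an edgeR unadjusted p below 0.05, against 272 without it. The groups share 1 replicate number only, so no pairing by number could be fitted, and the deposited table is the one block used. With 2 libraries a group, a spread that 1 library sets limits every comparison here; counting error, at 738 to 2917 reads per marker, was smaller than the WT difference in each marker.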
